A study of Caenorhabditis elegans with 2 samples.

Results

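The nuclear genes of the mitochondrial respiratory chain were examined for EOR-1 chromatin immunoprecipitation (ChIP) signal at their promoters. These were 37 genes, listed by name for complexes I to IV, cytochrome c and ATP synthase, of 19973 nuclear protein-coding genes in the annotation of Caenorhabditis elegans. For each gene, regions of the deposited lists were taken whose summit lay between 1000 bp upstream and 200 bp downstream of an annotated transcript start, called here the promoter window. Whole larvae of the L3 stage, of strain OP81, had been used for ChIP followed by sequencing, in 2 biological replicates of 1 group. They were recorded as males and females pooled and of unknown age. The strain carries unc-119(ed3) on chromosome III and the integrated transgene wgIs81, from which an eGFP-tagged EOR-1 is made. All animals carried both, and no second genotype or condition was compared. Whole animals were used, so a value averages over all tissues of the larva and over the cells that make the tagged protein.

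The respiratory chain sits in the inner mitochondrial membrane. Complexes I and II pass electrons from NADH and succinate to ubiquinone, complex III passes them on to cytochrome c, and complex IV hands them to oxygen. Complexes I, III and IV pump protons as they do so, and ATP synthase uses the proton gradient to make ATP. Most subunits are made from nuclear genes and imported, whereas a few core subunits are made from the mitochondrial genome, so the complexes draw on both. EOR-1 itself is a transcription factor with zinc fingers, studied in the worm for its part in Ras and Wnt signalling.

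The lists differ in what they hold. The pooled list and the lists of replicate 1 and replicate 2 were made as input for a reproducibility analysis, hold peaks together with background, and contained 30000 regions each. The optimal list held the 285 regions kept by that analysis, 256 of them nuclear, with a lowest signal of 52.7. Signal is on the scale of the deposited lists, and ranks run from 1 for the highest signal of a list. The lowest signal was 12.9 in the pooled list, 8.06 in replicate 1 and 6.98 in replicate 2, and the medians were 19.4, 11.9 and 10.6. A gene with no region had no summit listed in its window, which is not the same as no signal. The read depth of the libraries is not known, so no error can be attached to a single signal, and the spread between samples is that of the 2 replicates.

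Among the 37 genes, the highest pooled EOR-1 signals were at genes of complex IV, cytochrome c oxidase. None of the 8 listed genes of complex I and the 4 of complex II had a summit in both replicates. Their only pooled signal, 19.1 at nuo-5, was below the median of that list. Of the 37 genes, 2 had an optimal peak in the promoter window, cox-6A and cox-5A (5.41%, against 0.981% of all protein-coding genes). Both encode subunits of complex IV. The summit at cox-6A lay closer to a small nuclear RNA gene, and those at cox-6B and cox-6C closer to other protein-coding genes. The contrast with complex I holds for the listed genes only. Outside the list, the complex I gene ndub-8 had a pooled signal of 63.4 and an optimal peak. A summit of the pooled candidate list lay in the window of 11 genes (29.7%), against 32.1% of all genes, a share near the background. Those 11 had a median highest signal of 41.1, against 21.6 over the 6412 protein-coding genes with a pooled summit. In replicate 1, 14 genes had a summit (37.8%, against 34.2%), with a median highest signal of 20.8, against 13.01 over all genes with one. In replicate 2, 17 genes had a summit (45.9%, against 34.3%), with a median of 17.8, against 11.7. These counts and medians describe the listed genes and were not tested against the rest of the genome.

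At least 1 of the 3 candidate lists had a summit at 20 genes (54.1%, against 46.4% of all genes), and both replicates at 11 (29.7%, against 23.2%). The 11 include asb-2, where the replicates had separate regions. Among the 285 regions of highest signal, the length of the optimal list, replicate 1 had none in a window of these genes, where 0.891% of all genes had one. Replicate 2 had summits in 3 windows (8.11%, against 0.926%), those of cox-6A, cyc-2.1 and atp-1. The 2 replicates thus differed in which of these genes stood highest.

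The complexes differed in how many of their genes had a summit. Over all protein-coding genes the share was 46.4% in at least 1 candidate list, 32.1% in the pooled list and 23.2% in both replicates. All 7 genes of complex IV had one in at least 1 candidate list, 6 had one in both replicates and 5 had one in the pooled list. The 7 include cox-7C, at rank 29833 of replicate 1 alone. The 6 include cox-5B, where the replicate summits were 292 bp apart. In complex III, 3 of 7 genes had one in the pooled list and in both replicates, and the other 4 had none in any. Complex I had a summit at 5 of 8 genes in at least 1 list, at 1 in the pooled list and at none in both replicates. Complex II had 1 of 4 genes and cytochrome c 1 of 2, each in replicate 2 alone. ATP synthase had 3 of 9, of which 2 had one in the pooled list and in both replicates, at asb-2 in separate regions. The groups are of 2 to 9 genes, and their shares were not tested against each other.

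**Figure D1:**
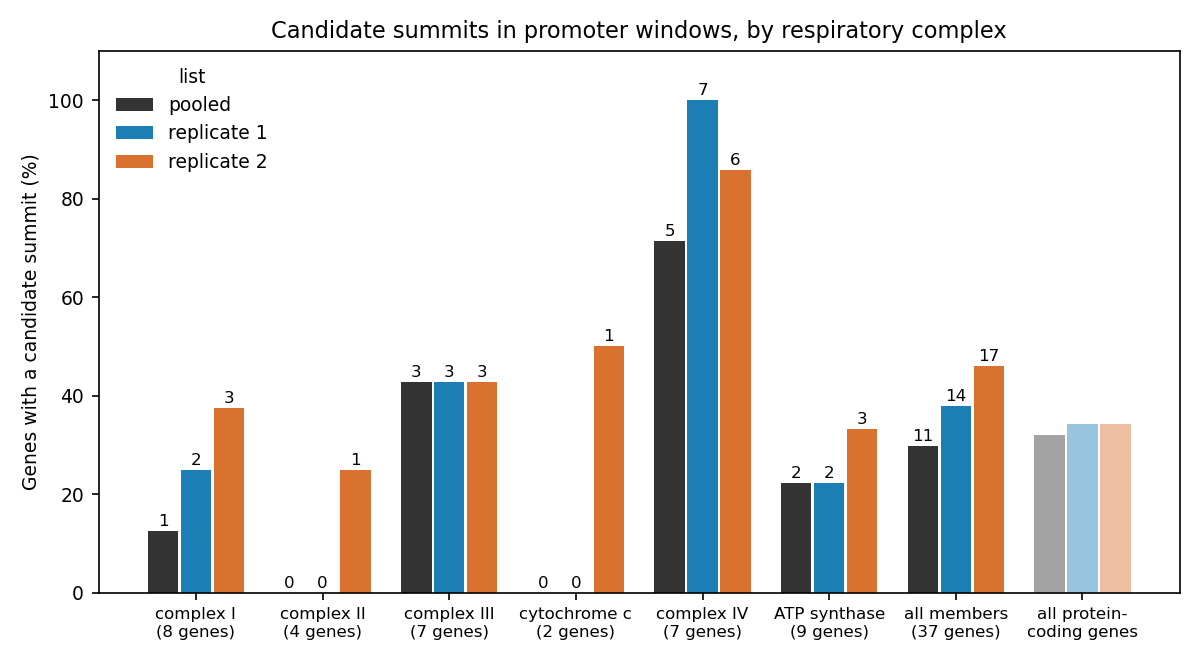
The bars give the percentage of genes with a candidate summit in the promoter window, for each complex, for all 37 genes and for all 19973 protein-coding genes (paler bars), in the pooled, replicate 1 and replicate 2 lists, with the number of genes above each bar. Complex IV has the tallest bars, with 5, 7 and 6 of 7 genes. All 37 genes together lie near all protein-coding genes in the pooled list (29.7% against 32.1%) and replicate 1 (37.8% against 34.2%). In replicate 2 they lie higher (45.9% against 34.3%).

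The strongest region of the set lay upstream of cox-6A, which encodes subunit 6A of complex IV. The region, on chromosome III, had a pooled signal of 73.1 at rank 131 and was in the optimal list. Its signal was 22.6 at rank 1264 in replicate 1 and 49.4 at rank 89 in replicate 2. Replicate 2 was the higher, with a log2 ratio of replicate 1 over replicate 2 of -1.13. Its −log10 q was 2.50, the highest value of the pooled list, which 160 regions shared. Of the genes with a pooled summit, 1.25% had a signal as high or higher. The summit lay 787 bp upstream of the transcript start, between genes.

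The region also holds a small nuclear RNA (snRNA) gene, F54D8.7, whole, on the minus strand. The summit lay 39 bp upstream of the start of that gene, much closer than to cox-6A. The 101 bp of F54D8.7 occur without a mismatch at 17 places in the genome, on chromosomes III, IV and V. A pooled region had its summit within 200 bp of 2 of these copies, an optimal peak at 1, a replicate 1 region at 1 and a replicate 2 region at 4. At another copy, also on chromosome III, replicate 2 had a signal of 62.4 at rank 66, with no pooled and no replicate 1 region. How reads from identical copies were placed is not known, so the share of the cox-6A signal that comes from this place is uncertain. The part of the copies in the difference between the replicates was not tested.

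A weaker pooled region lay nearer to cox-6A, 214 bp upstream, with a signal of 18.8 at rank 16169. Replicate 2 had 13.4 at rank 8103 there, 315 bp upstream, and replicate 1 had no region. Just outside the window, 1151 bp upstream, a pooled region had 44.8 at rank 524.

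The other optimal peak lay 253 bp upstream of cox-5A, the gene of subunit 5A of complex IV. The region was chrIII:12905090-12905385 in build ce11 (WBcel235), with a pooled signal of 55.3 at rank 251, close to the 52.7 at which the optimal list ends. The replicates gave nearly the same signal here, 27.7 at rank 467 in replicate 1 and 29.1 at rank 292 in replicate 2, a log2 ratio of -0.07. Its −log10 q was 1.47. The summit lay between genes and in no other gene's promoter window, and cox-5A had the closest transcript start. A weak region farther upstream, 858 bp from the start, had 19.02 in the pooled list and 8.29 in replicate 1.

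The sequence of the cox-5A region is shown because the reproducibility analysis kept it and the replicates gave it nearly equal signals. It is the plus strand of WBcel235 from RefSeq, 5′ to 3′, which is the strand of the gene. Capitals mark matches on either strand of the words GAGACGCAG and AGACGCAGA, which are 2 forms of a motif recalled for EOR-1, and of the shorter word GAGAG, read on the minus strand as CTCTC.
cox-5A region: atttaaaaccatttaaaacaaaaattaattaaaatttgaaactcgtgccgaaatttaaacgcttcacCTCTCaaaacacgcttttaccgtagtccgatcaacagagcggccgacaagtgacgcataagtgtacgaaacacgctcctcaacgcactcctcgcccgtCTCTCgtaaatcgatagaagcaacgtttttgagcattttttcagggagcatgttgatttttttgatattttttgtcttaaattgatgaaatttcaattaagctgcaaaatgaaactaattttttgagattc
In this region GAGAG occurs on the minus strand at 2 places, 1 of them within 50 bp of the summit. The cox-6A region holds neither the motif nor GAGAG.

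The cox-6B gene, for subunit 6B of complex IV, had the next highest pooled signal of that complex. Its region at chrIII:2785878-2786173 had 43.9 at rank 565. Replicate 1 had 28.8 at rank 398 there, and replicate 2 had 13.1 at rank 8753, so replicate 1 was the higher (log2 ratio 1.14). The 3 summits fell within 4 bp of each other, 175 to 179 bp upstream of a cox-6B start. This summit was shared: Y71H2AM.20 has its start 78 bp away, and the complex I gene nduc-2 has its own 826 bp away. The first annotated start of cox-6B lies far upstream, at chrIII:2699663, and the summit lies in the long intron that follows it. The window of that far start held weak regions with pooled signals of 14.7 and 14.2, both closest to slc-30A9. Around the main summit, in the 101 bp chrIII:2785976-2786076 on the plus strand, the capitals mark GAGAG.
cox-6B summit window: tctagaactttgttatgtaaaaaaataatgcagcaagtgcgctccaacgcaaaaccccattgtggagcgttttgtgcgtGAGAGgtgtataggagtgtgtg

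At cox-4, the gene of subunit 4, the pooled region had 37.5 at rank 1172, with its summit 325 bp upstream. Replicate 1 had 24.5 at rank 824 and replicate 2 had 10.8 at rank 14369, the widest gap in favour of replicate 1 among the places with a region in both replicates (log2 ratio 1.18). The 3 summits lay 325 to 342 bp upstream, in an intron of an annotated pseudogene. At cox-6C, for subunit 6C, the pooled region had 34.3 at rank 1838, with 15.5 at rank 6931 in replicate 1 and 18.3 at rank 2448 in replicate 2. Its pooled summit, 443 bp upstream of cox-6C, lay inside the non-coding RNA gene F29C4.9 and was 357 bp from the start of the divergent gene grld-1, so cox-6C was not the closest gene.

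The other genes of complex IV had no pooled summit. At cox-5B, for subunit 5B, replicate 1 had 10.5 at rank 19515 and replicate 2 had 16.1 at rank 4267, but these summits were 292 bp apart, on different sides of the first transcript start, and the regions overlapped at their edges only. At cox-7C, for subunit 7C, replicate 1 alone had a region, with 8.095 at rank 29833, close to the end of that list at 8.06. The log2 ratio at cox-5B was -0.62. The cox-5B summit of replicate 1 was also in the window of tba-1, and that of cox-7C in the window of F26E4.4, both on the other strand.

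**Figure D2:**
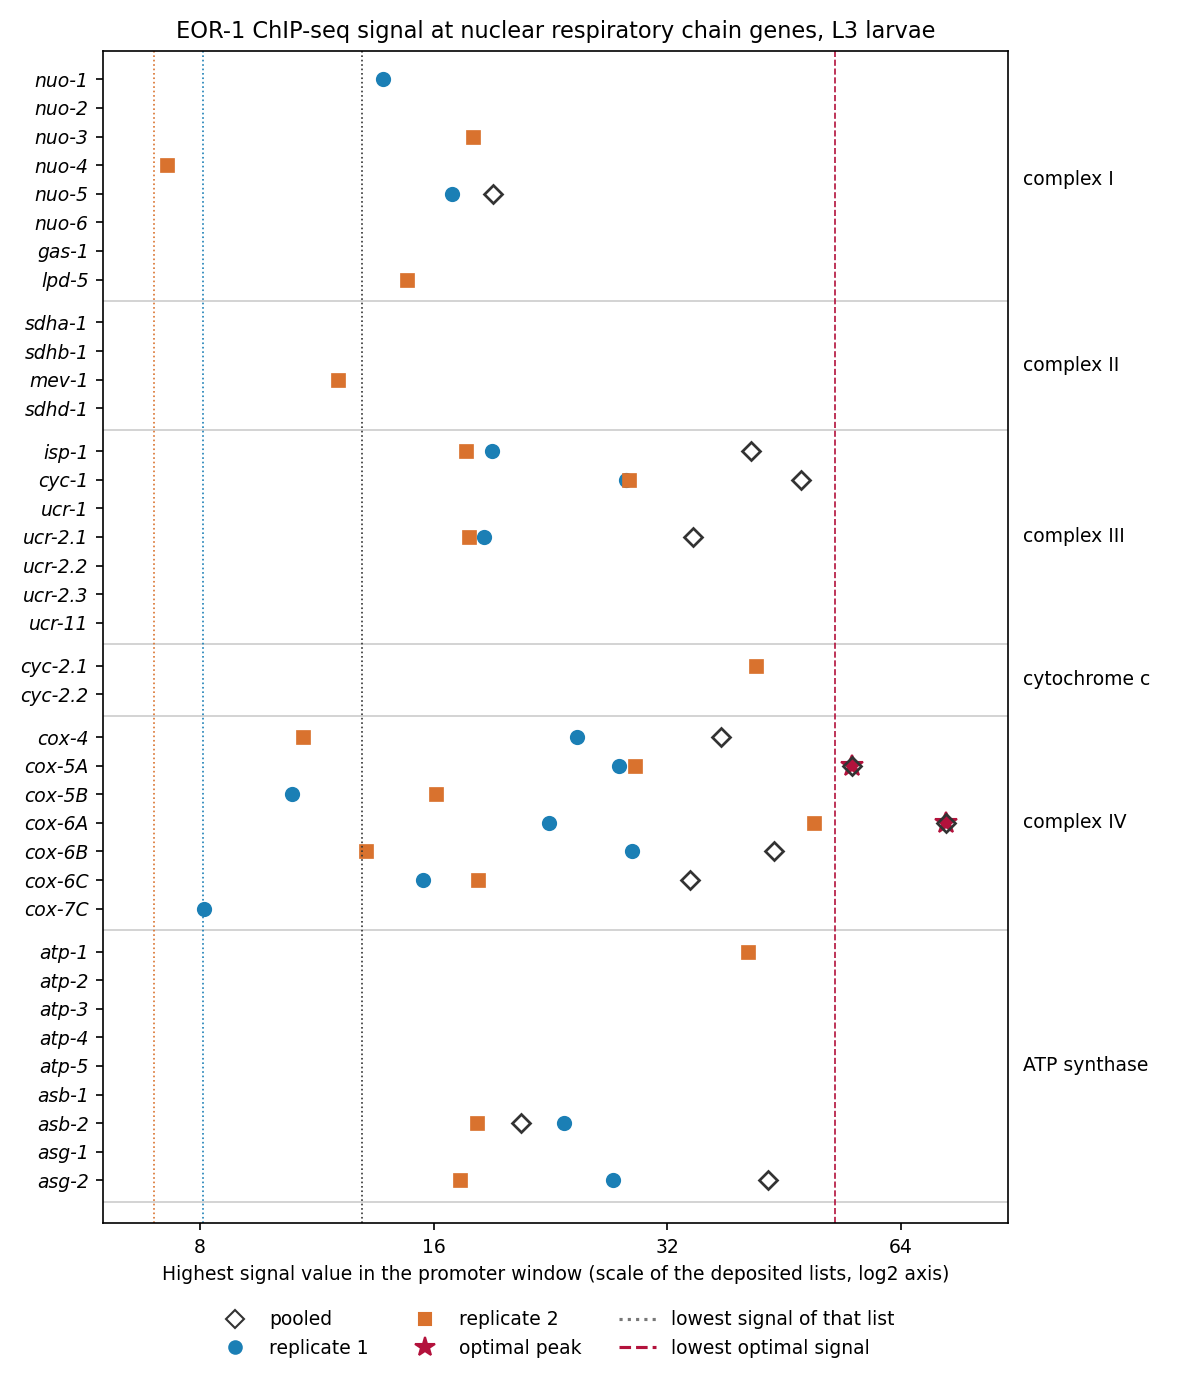
Each of the 37 genes has a line, grouped by complex, with the highest signal in its promoter window on a log2 axis in the scale of the deposited lists, for the pooled list (diamonds), replicate 1 (circles), replicate 2 (squares) and the optimal list (stars). Dotted lines mark the lowest signal of each candidate list and the dashed line that of the optimal list (52.7), which cox-6A (73.1) and cox-5A (55.3) pass.

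In complex III, the cytochrome bc1 complex, the genes of the catalytic subunits had regions in every candidate list. The strongest was at cyc-1, the gene of cytochrome c1, with a pooled signal of 47.6 at rank 402, 378 bp upstream. Replicate 1 had 28.3 at rank 425 and replicate 2 had 28.5 at rank 317, a log2 ratio of -0.01, the most even pair of signals in the set. Their summits were 114 bp apart, against a median of 68 bp for all genes. This pooled signal fell short of the optimal list's lowest, 52.7. At isp-1, the gene of the Rieske iron-sulphur protein, the pooled signal was 41.1 at rank 745, with 18.997 at rank 3032 in replicate 1 and 17.6 at rank 2906 in replicate 2. The summits lay 12 to 32 bp upstream of isp-1, among the closest to a start in the set. The divergent gene islo-1 starts 309 bp from the pooled summit.

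At ucr-2.1, a gene of a core protein of complex III, the pooled signal was 34.5 at rank 1772, 78 bp upstream, and nmat-1 starts 308 bp away on the other strand. Replicate 1 had 18.6 at rank 3354 and replicate 2 had 17.8 at rank 2789, a log2 ratio of 0.07. So all 3 genes of complex III with a region gave similar values in the replicates. The 101 bp around this summit, chrX:12018301-12018401 on the plus strand, are shown as an example of a summit with neither word and hence no capitals.
ucr-2.1 summit window: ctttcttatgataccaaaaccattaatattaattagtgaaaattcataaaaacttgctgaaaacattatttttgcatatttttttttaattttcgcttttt
The core protein genes ucr-1, ucr-2.2 and ucr-2.3 and the small subunit gene ucr-11 had no summit in their windows in any list. For ucr-11 this depends on the edge of the window, as a pooled region with 37.9 at rank 1102 had its summit 1042 bp upstream.

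Of the 8 listed genes of complex I, the NADH dehydrogenase, 5 had regions, none of them in both replicates. Only nuo-5, for the iron-sulphur subunit known in mammals as NDUFS1, had a pooled summit. Its signal was 19.1 at rank 15686, below the list's median of 19.4, with 16.9 at rank 5011 in replicate 1 and no region in replicate 2. That summit, 150 bp upstream, fell in the 3′ UTR of the gene before it, Y45G12B.2. At nuo-1, for the NADH-binding subunit, replicate 1 alone had 13.8 at rank 10160. In replicate 2 alone, nuo-3 had 17.97 at rank 2638, lpd-5, for the homologue of mammalian NDUFS4, had 14.8 at rank 5914, and nuo-4 had 7.25 at rank 28645, close to the end of that list. At nuo-3 the divergent gene arl-8 had a start as near as nuo-3's own, at 305 bp for nuo-3 against 300 bp for arl-8, and another gene shared the summit too. The summit of nuo-1 was shared with rpl-36.A and that of lpd-5 with cec-10. The genes nuo-2, nuo-6 and gas-1 had no summit in any list.

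Complex II, succinate dehydrogenase, had the least of the complexes. At mev-1, for its cytochrome b subunit, replicate 2 alone had 12.03 at rank 11135, and this summit lay 8 bp inside the divergent gene jmjd-4, in its coding sequence. The flavoprotein gene sdha-1, the iron-sulphur subunit gene sdhb-1 and the membrane anchor gene sdhd-1 had none.

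Cytochrome c and the alpha subunit of ATP synthase had strong regions that occurred in replicate 2 only. At cyc-2.1, which encodes a cytochrome c, replicate 2 had 41.6 at rank 117, with the summit 176 bp downstream of the transcript start, in an intron, at chrIV:4748686-4748985. At atp-1, for the alpha subunit of ATP synthase, replicate 2 had 40.7 at rank 120, with the summit 15 bp upstream of atp-1 and 175 bp from the start of the divergent gene mcrs-1. Replicate 1, whose list ends at 8.06, had no region in either window. The pooled list, which ends at 12.9, had none either, although it was called on the reads of both replicates together. Each had the highest −log10 q of replicate 2, 2.64, which 221 regions shared.

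Regions of this kind were few in replicate 2. Of its 256 nuclear regions among the first 285, 16 (6.25%) overlapped neither a pooled nor a replicate 1 region, and these 2 were among them. In replicate 1, 9 of 258 (3.49%) overlapped neither of the other lists, and none of those had its summit in a window of the 37 genes. Outside the 37, F58F12.1, listed below with other subunits of complexes II to V, had 41.1 at rank 119 in replicate 1. Neither the pooled list nor replicate 2 had a summit in its window. Since replicate 1 had no region at cyc-2.1 or atp-1, the signals listed there come from 1 replicate. Absence from the pooled list alone does not show this. At timm-17B.1, listed below under protein import, replicate 1 had 27.8 at rank 461 and replicate 2 had 30.6 at rank 238. The pooled list had no summit in that window. The other cytochrome c gene, cyc-2.2, had no summit in any list.

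In ATP synthase, asg-2 and asb-2 had pooled summits. At asg-2, for subunit g, the pooled signal was 43.2 at rank 598, with 27.2 at rank 501 in replicate 1 and 17.3 at rank 3164 in replicate 2 (log2 ratio 0.65). The pooled summit was 382 bp upstream of asg-2 but 156 bp from the start of glr-6, a glutamate receptor gene on the other strand. A weaker pooled region, 180 bp upstream, was closest to asg-2, with 17.5 at rank 18785.

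At asb-2, for subunit b, the lists did not name the same place. The pooled region had 20.7 at rank 12783, 517 bp upstream, and replicate 1 had 23.6 at rank 989 there. Replicate 2 had no region there but had 18.2 at rank 2490 in a separate region, 208 bp upstream. This replicate 2 region is shown because it was the only one of the set to hold the motif recalled for EOR-1. It is chrX:4469408-4469707 on the plus strand, the strand of the gene.
asb-2 replicate 2 region: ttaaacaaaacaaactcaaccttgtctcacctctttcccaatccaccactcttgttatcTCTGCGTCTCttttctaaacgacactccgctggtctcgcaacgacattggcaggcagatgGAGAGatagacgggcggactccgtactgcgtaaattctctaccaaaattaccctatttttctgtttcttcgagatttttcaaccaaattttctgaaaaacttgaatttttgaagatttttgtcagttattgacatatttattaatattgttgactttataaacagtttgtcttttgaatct
Both forms of the motif overlap on the minus strand in the first run of capitals, and GAGAG makes the other. The motif lay 82 bp from the summit and 290 bp upstream of the asb-2 start. The remaining genes of ATP synthase, atp-2 for the catalytic beta subunit, atp-3 for the subunit that confers oligomycin sensitivity, atp-4, atp-5, asb-1 and asg-1, had no summit in any list. So asb-2 and asg-2 had regions while asb-1 and asg-1, which encode the same subunits, had none.

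**Figure D3:**
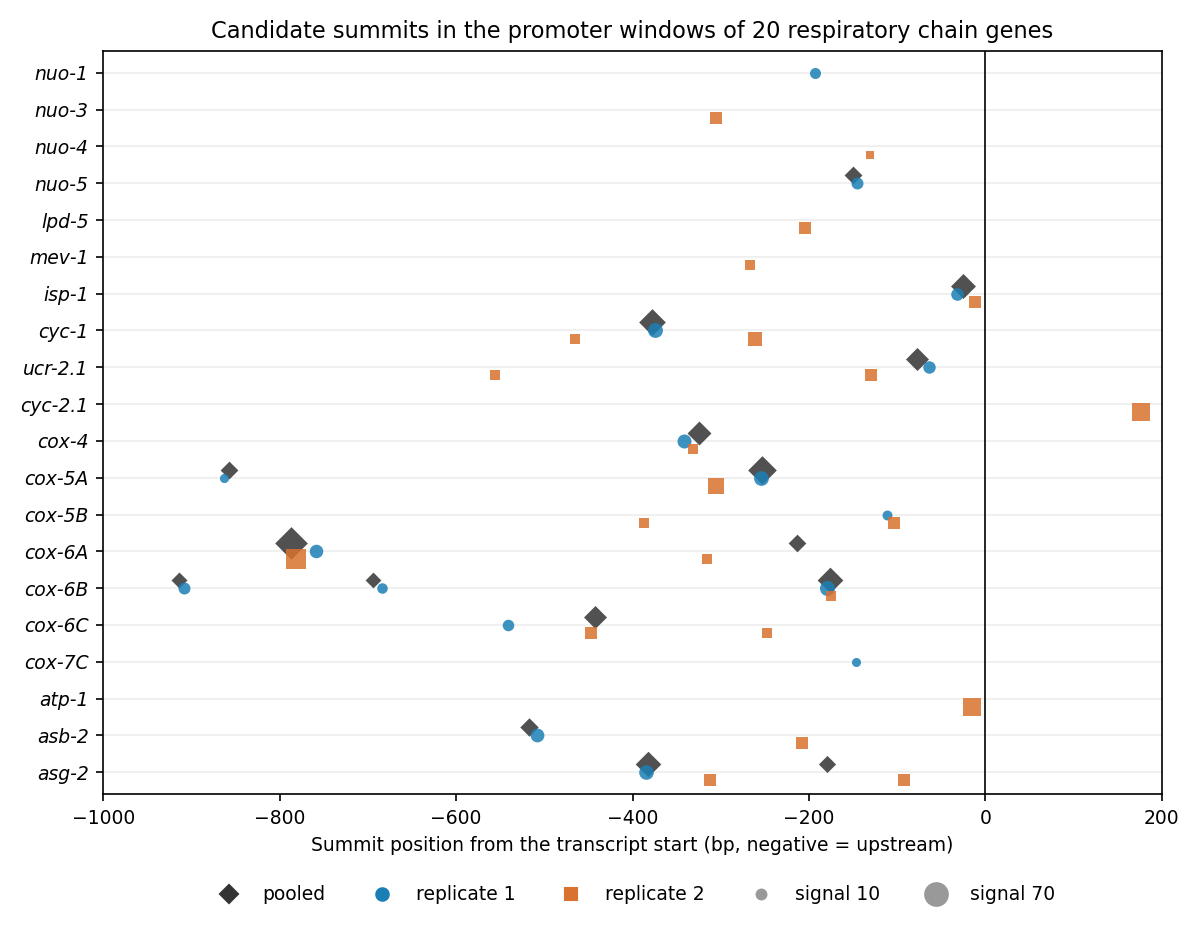
Each marker is a candidate summit in the promoter window of the 20 genes that had one, placed by its distance from the transcript start in bp (negative is upstream), for the pooled list (diamonds), replicate 1 (circles) and replicate 2 (squares), with the area growing with signal. Most pooled summits fall within 500 bp upstream, the strongest (cox-6A) lies at -787, and the large squares without a partner are cyc-2.1 at 176 and atp-1 at -15.

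Where the regions lay was also set beside all genes. The highest pooled summit of a gene had a median position 325 bp upstream of the start for these genes, against 402 bp for all genes with one. At 5 of the 11 (45.5%, against 20.9% of all genes with one) it was also in the window of another protein-coding gene. These were asg-2, cox-6B, cox-6C, isp-1 and ucr-2.1, so signal there cannot be assigned to a single gene. At the other 6, among them cox-6A, cox-5A, cyc-1 and cox-4, no other protein-coding gene shared it. A gene on the same strand ended within 1000 bp upstream of 11 of the 37 genes, and 3 of these had a pooled summit. Of the other 26, 8 did. The same counts were not made over all genes. By chromosome, 11 of the 37 genes were on I, 3 on II, 9 on III, 4 on IV, 4 on V and 6 on X, and both optimal peaks were on III.

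The motif recalled for EOR-1 was not found near the pooled summits. Within 50 bp of the 16 pooled summits in these windows, 0 had GAGACGCAG or AGACGCAGA, against 58 of 8068 summits in promoter windows of all genes (0.719%). With a background share this low, 0 of 16 cannot be told apart from it. In the whole regions it was 0 of 16, against 2.03%. In replicate 2 it was in 1 of 23 regions, that at asb-2, against 2.40%. The word GAGAG was within 50 bp of 3 pooled summits (18.8%, against 8.96%), 1 at cox-5A and 2 at cox-6B, of which 1 belongs to the far start near slc-30A9. In replicate 2 it was within 50 bp of 5 of 23 (21.7%, against 9.97%), at atp-1, cox-5A, cox-6B, cox-6C and the asb-2 region printed above. The median GC content of the 101 bp around the pooled summits was 28.2%, against 26.7% at all promoter summits. It was 54.5% at cox-6A, 52.5% at cox-5A, 48.5% at cox-6C and 43.6% at the shared cox-6B summit, against 28.7% at cyc-1, 23.8% at isp-1, 19.8% at ucr-2.1 and 16.8% at asg-2. It was 31.7% at cox-4, 20.8% at nuo-5 and 18.8% at asb-2. Around the replicate 2 summits the median was 31.7%, against 26.7%.

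The replicates were compared over places, joining overlapping regions of the 3 candidate lists. The genes had 14 such places with a pooled region. Both replicates had a region at 9 of them (64.3%), against 50.9% of the 8068 pooled promoter regions of all genes. The all-gene values here are per single pooled region and not per joined place, so the comparison is between unlike units. Replicate 1 alone had a region at 4 and replicate 2 alone at 1. At the 9, the log2 ratio of replicate 1 over replicate 2 had a median of 0.07 and ran between -1.13 and 1.18, and the summits were a median of 51 bp apart. For all genes the median was 0.14, the central 90% of ratios ran between -0.87 and 1.14, and the summits were a median of 68 bp apart. So cox-6A lay below that central range and cox-4 just above it, with cox-6B at its edge. The other 6 places, at cox-5A, cyc-1, isp-1, ucr-2.1, cox-6C and asg-2, lay within it.

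**Figure D4:**
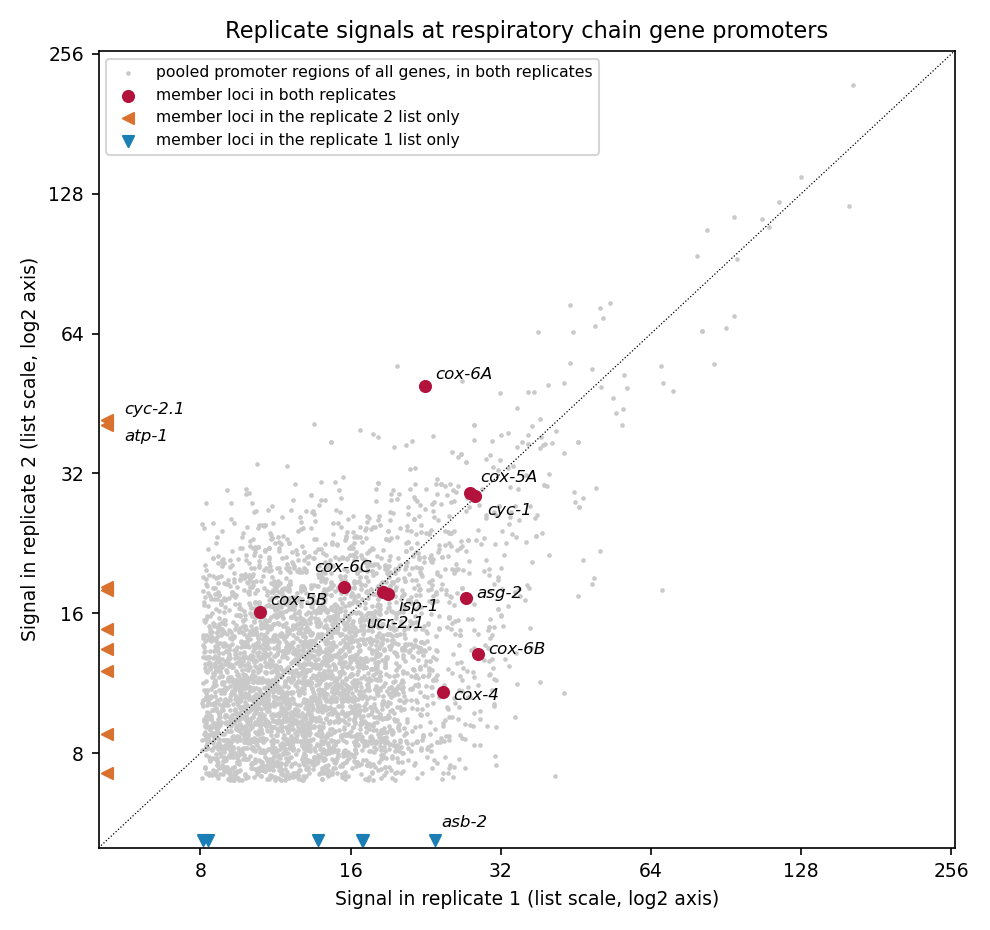
The signal in replicate 2 is plotted against that in replicate 1 on log2 axes in the scale of the lists, for pooled promoter regions of all genes found in both replicates (grey), for places at the 37 genes found in both (red), and, as triangles on the axes, for places found in 1 replicate only. The dotted line marks equal values: cox-6A lies above it (49.4 in replicate 2, 22.6 in replicate 1), cox-4 and cox-6B below, and cyc-2.1 (41.6) and atp-1 (40.7) have no value in replicate 1.

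Other mitochondrial genes, from lists drawn up by function, gave a comparison. Of 163 names in these lists, 113 were found in the annotation. Of these 113 genes, 53 had a pooled summit (46.9%, against 32.1% of all genes), with a median highest signal of 23.04, against 21.6 over all genes with one. An optimal peak was at 4 of them, where 0.981% of all genes had one. These counts include tim-1, misplaced in the list of protein import, and ucp-4, misplaced in that of nucleotide and phosphate carriers. Among other subunits of complex I, 13 of 26 had a pooled summit (50%), with ndub-8 highest (63.4, rank 173, an optimal peak also in the window of cup-14, with 29.9 in replicate 1 and 34.4 in replicate 2), which is above the 55.3 of cox-5A. Next were nduc-2, which shares the region of cox-6B, and ndua-2 with 43.6, whose summit was also in the windows of dnj-29 and fld-1. Other subunits of complexes II to V had 2 of 11 (18.2%), with 32.7 at mai-2, for an inhibitor of ATP synthase, and 20.8 at T02H6.11. The T02H6.11 summit was also in the window of thoc-1. Assembly factors had 8 of 15 (53.3%), none above the 22.5 of oxa-1.

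The highest share and the highest signals among these lists were those of protein import, the machinery that brings nuclear-encoded subunits into the organelle. It had 12 of 17 with a pooled summit (70.6%), and 3 with an optimal peak. Of these, timm-23 (77.6) and ddp-1 (74.6) were higher than any of the 37 genes. The third, tim-1 (75.9), encodes a homologue of Timeless and not a part of the import machinery. It was wrongly kept in the list, and these counts include it. Ubiquinone synthesis had 4 of 8 (50%), with 30.6 at coq-5, 29.2 at clk-1 and 27.5 at coq-1. Nucleotide and phosphate carriers had 3 of 7 (42.9%), with 50.4 at F01G4.6. The citric acid cycle had 7 of 20 (35.0%), near the 32.1% of all genes, with 48.3 at dld-1, which encodes dihydrolipoamide dehydrogenase, and 35.2 at mdh-2, for malate dehydrogenase. Mitochondrial gene expression had 4 of 9 (44.4%), with 50.9 at mtss-1, for the single-stranded DNA binding protein, and 32.2 at tufm-1, for an elongation factor. Several of these summits were also in the window of another protein-coding gene. They were those of timm-23 (with F15D3.6), ddp-1 (ttc-7), tim-1 (Y75B8A.23), coq-5 (ufm-1 and tomm-7), F01G4.6 (pfd-1), mdh-2 (F20H11.4) and mtss-1 (mig-22). At tim-1 and mdh-2 the start of the other gene was the closer. Signal at these summits cannot be assigned to a single gene. The lists were not tested against each other or against the 37 genes.

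The mitochondrial genome, which carries the genes of a few core subunits, dominated all lists. It held 30 pooled and 29 optimal regions, and the first 25 ranks of the pooled, replicate 1 and replicate 2 lists were all mitochondrial. The optimal regions covered 11885 of 13794 bp (86.2%) and overlapped all 12 of its protein genes, with signals between 90.4 and 2788 (median 1223). The regions thus covered most of that genome rather than single promoters, and their signals are not on a footing with those of nuclear promoters.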

How the data were processed

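ChIP-seq for eGFP-tagged EOR-1 was done on 2 biological replicates of whole L3 larvae, with fragments of 150 to 350 bp per the labels. Per the deposited README, the authors called candidate regions against a control, for each replicate and for the pooled reads, and took the optimal list from these by the irreproducible discovery rate. Each deposited list gives per region a signal, whose scale is not stated, and a −log10 q value, both made by the authors. The names of the aligner and the peak caller were not given in the sources used here. Read depth is not known, and because each candidate list has 30000 regions its length carries no information on depth. Lists in ce11 were used, and those in ce10, the alignments and the control were not used here.

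The summit (start plus offset, converted to 1-based positions) was assigned to every protein-coding gene of Ensembl release 115 (WBcel235) whose window (1000 bp before a transcript start to 200 bp after it) held it. The window rule was tested on simulated positions. Regions of different lists were joined where they overlapped by 1 bp or more. Words were searched on both strands within 50 bp of summits, in the RefSeq sequence of WBcel235. The sequence of the cox-6A region is not reported here. Counts and medians are descriptions beside the same over all 19973 protein-coding genes. No p-value was computed, since there was 1 group.

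The members and lists were chosen with earlier results of these data known. After values had been seen, names wrongly placed in the function lists were dropped or moved on annotation grounds. The gene tim-1 was left in the list of protein import, and ucp-4 in that of nucleotide and phosphate carriers. All 37 members are named. Protein-coding genes whose window shares the highest summit of a member are named too (but for the more distant of those at nuo-3), and of each other list up to 3 genes with an optimal peak or the highest pooled signal. F54D8.7 and its copies, slc-30A9 and the regions just outside the window were chosen after their values were seen. Alternatives were other windows, other rules for assigning a summit, the regions above the median signal of each list, and each replicate's own list. Scripts ran under Python 3.11.15 with pandas 2.3.3 and numpy 2.4.6, and figures were drawn with matplotlib 3.10.9.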

Additional observations from a re-analysis of the deposited data

How the results depend on the processing

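With the pooled list, 11 genes had a summit in the window, and 32.1% of all genes did. The other settings that kept this list gave 8 to 13 genes, while the all-gene share ran between 19.8% and 41.2%. A window of 500 bp upstream to 100 bp downstream dropped asb-2 and left 10, against 21.4% of all genes. One reaching 2000 bp upstream added atp-1 and ucr-11 and gave 13, against 41.2%. Keeping the regions above the median signal dropped nuo-5 and left 10, against 19.8%. Assigning each summit to the closest protein-coding start dropped cox-6B and cox-6C and left 9, against 29.3%. Counting non-coding starts as well, a setting chosen after the data were seen, also dropped cox-4 and left 8, against 28.1%. How the count stood beside all genes thus depended on the setting. With 1 replicate left out, the list of the other replicate gave 14 to 17 genes, of which 11 (replicate 1 list) and 10 (replicate 2 list) were those of the pooled list. The all-gene shares in these lists were 34.2% and 34.3%. The 2 genes with an optimal peak (against 0.981% of all genes) became 1 with the narrower window, which dropped cox-6A (against 0.766%). They became 1 when the closest start could be that of a non-coding gene, which also dropped cox-6A (against 0.581%). They became 1 among the regions above the median signal of the optimal list, which dropped cox-5A (against 0.456%). With 1 replicate left out, the 285 highest regions of the other gave 0 to 3 genes. There were none in replicate 1 (against 0.891%), and cox-6A, cyc-2.1 and atp-1 in replicate 2 (against 0.926%). So cox-6A depends on the window and on replicate 2, and cox-5A, at ranks 467 and 292, was lost whichever replicate was left out. No paired analysis was possible because there was only 1 group. With 2 replicates, unstated depth and lists cut at 30000 regions, a gene without a region is not shown to lack EOR-1, and single signals carry no error.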
